A study of Homo sapiens with 6 samples.

Results

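The proteasome genes described here are those whose symbol in the deposited gene table starts with PSM, goes on with a letter from A to G and ends in a number, a pattern that leaves pseudogenes out. The pattern found 48 of the 50868 genes in the table. They were sorted by role into the core alpha ring (8 genes), the constitutive core beta ring (7), the immunoproteasome and thymoproteasome catalytic subunits (4), the base ATPases (6), the base scaffolds and ubiquitin receptor (3), the lid (8), the assembly chaperones of the core (4) and of the base (3), and the activators with the inhibitor (5). The members lie on 17 chromosomes, with 8 of them on chromosome 14. RNA had been sequenced from CUTLL1 cells, a human line derived from T-cell acute lymphoblastic leukaemia, after infection with a lentivirus that encodes a short hairpin RNA. The shAURKB arm (3 libraries) carried a hairpin against AURKB, the catalytic subunit of the chromosomal passenger complex, and the shGFP arm (3 libraries) a control hairpin. Both arms were kept under puromycin for 48 h, so the cultures of both arms had been through infection and selection. How many AURKB hairpins were used is not given in the sources used here, and 1 cell line and 1 time were studied.

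The proteasome is the main protease for ubiquitin-tagged proteins in the cytosol and the nucleus. Its barrel-shaped core holds catalytic beta subunits between outer rings of alpha subunits, and a regulatory particle, made of an ATPase-containing base and a lid, binds ubiquitin chains, removes them and threads the substrate into the core. In lymphoid cells the constitutive catalytic subunits can be exchanged for the interferon-inducible immunoproteasome subunits, and dedicated chaperones that are not part of the finished particle help to put the core and the base together.

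Library totals ran from 10154187 to 11922979 counts, and 14818 genes passed the filter on low counts. AURKB itself stood at 100, 97.0 and 107 CPM (read counts scaled to library size) in shGFP libraries 1 to 3 and at 39.8, 43.9 and 36.0 CPM in shAURKB libraries 1 to 3. The arms did not overlap, and AURKB fell to a fold of 0.393 (log2 change -1.35 ± 0.08 SE, edgeR adjusted p = 0.000254). Across all genes edgeR called 3456 (23.3%) changed at an adjusted p below 0.05, 1847 higher and 1609 lower. Without shAURKB library 3 the total was 2269. Of all calls 53.4% were higher, and 38.8% with upper-quartile scaling, which shifted the median gene by -0.054 on the log2 scale. Summed levels of 8 T-cell markers were 2110 to 2230 CPM in the control arm and 2330 to 2460 CPM in the shAURKB arm. Fibroblast and epithelial markers stood apart in the control library 1, at 17.8 and 9.31 CPM, against at most 0.394 and 1.17 CPM in the other libraries. The part of either difference in the values below was not tested.

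Of the 47 members that passed the filter, 24 (51.1%) rose in the shAURKB libraries and 0 fell, whereas 12.5% of all tested genes rose and 10.9% fell. The members are abundant genes. Among genes of at least 20 CPM on average, which take in 46 members and all 24 calls, 20.6% rose. The count of 0 fallen members came from edgeR, and 1 member was lower at an unadjusted p below 0.05, against 30 that were higher. Calls were also 24 with DESeq2 and 24 with limma-voom, all of them higher, and with upper-quartile scaling 19 members were called higher and 1, PSMG3, lower. The median log2 change of the tested members was 0.25, beside 0.0 over all tested genes and 0.06 over those of at least 20 CPM. Changes were small: member log2 changes ran from -0.27 to 0.50, the largest fold was 1.41 and 0 members reached a 2-fold change. In 32 members (68.1%) the shGFP and shAURKB values did not overlap, compared with 42.6% of all tested genes. In 31 of these 32 the shAURKB libraries were the higher ones. Of the 24 calls 18 were kept whichever single library was left out. RNA was measured in bulk, so a change in RNA per cell and a change in the mix of cell states cannot be told apart.

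The 31 subunits of the core and of the regulatory particle that are neither immunoproteasome subunits nor the testis-type PSMA8 all had a positive log2 change. Their median was 0.28 and 21 of them rose, beside 12.5% of all tested genes and 20.6% of those of at least 20 CPM. The tested subunits left out had log2 changes of -0.27 (PSMA8), -0.12 (PSMB8), 0.00 (PSMB9) and -0.16 (PSMB10). The shared sign of the 31 thus depends on how the set was drawn. Summed, the 31 stood at 3438, 3448 and 3510 CPM in shGFP libraries 1 to 3 and at 4298, 4248 and 4317 CPM in shAURKB libraries 1 to 3. Within each arm the 3 sums lay close together, at 99.2 to 101% of the control mean in the control arm and at 123 to 125% in the shAURKB arm.

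**Figure D1:**
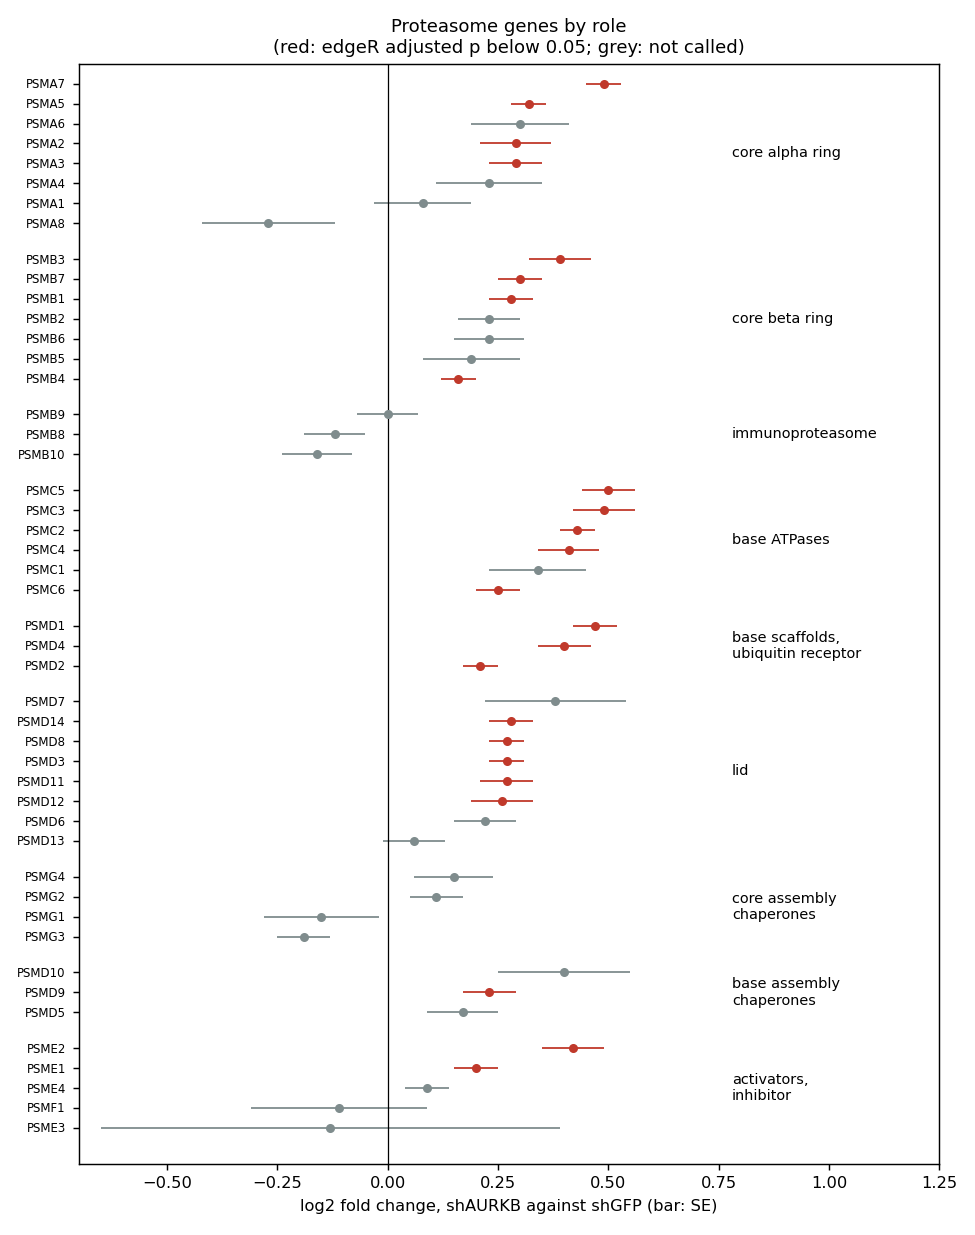
Log2 change of each tested member (shAURKB minus shGFP, with its SE), by role group, with called and uncalled members marked. Called members reach 0.50, all to the right of 0, and the immunoproteasome subunits and core assembly chaperones hold no called member.

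The core alpha ring, which forms the gated entry of the barrel, had 4 of 8 members higher, 0 lower and a median log2 change of 0.29. For comparison with this and the role groups below, 12.5% of all tested genes rose and 20.6% of those of at least 20 CPM. PSMA7 (ENSG00000101182, chr20:62136735-62143440, minus strand) is the ring's most changed member. It measured 170, 161 and 175 CPM in the control libraries and 237, 241 and 232 CPM in the shAURKB libraries. The arms were well separated, with each shAURKB value above each control value, and PSMA7 rose by a log2 of 0.49 ± 0.04 (edgeR adjusted p = 0.000698). PSMA5 (ENSG00000143106, chr1:109399031-109426427, minus strand) measured 157, 155 and 159 CPM in the control arm and 191, 204 and 195 CPM in the shAURKB arm. It rose by 0.32 ± 0.04 (edgeR adjusted p = 0.00246), again without overlap. PSMA2 (0.29, edgeR adjusted p = 0.0343) and PSMA3 (0.29, edgeR adjusted p = 0.0115) also rose, and the PSMA2 call was lost without shGFP library 1 and without any of the shAURKB libraries.

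The other alpha members did not pass the test. PSMA4 was at 131, 96.6 and 138 CPM in the control arm and at 143 CPM in each shAURKB library. Control library 2 was the low one, and the log2 change of 0.23 had an edgeR adjusted p of 0.222. PSMA6 had a log2 change of 0.30 (edgeR adjusted p = 0.106) with overlapping arms, and PSMA1 one of 0.08 (edgeR adjusted p = 0.635). PSMA8, the alpha subunit known from the testis proteasome, had low counts, at 11.1, 11.5 and 10.7 CPM in the control arm and 8.14, 8.09 and 11.3 CPM in the shAURKB arm. Its log2 change of -0.27 (edgeR adjusted p = 0.248) is the most negative among the members. An overlapping pseudogene on the opposite strand, DHFRP1, was lower by -0.38 (edgeR adjusted p = 0.00806). The overlap is one of whole gene spans, and whether exons overlap was not checked. The strand setting of the counting is not given in the sources used here, so any reads that PSMA8 and DHFRP1 share cannot be told apart.

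The constitutive beta ring carries the caspase-like (PSMB6), trypsin-like (PSMB7) and chymotrypsin-like (PSMB5) active sites beside structural subunits. Of its 7 members 4 rose and 0 fell, with a median log2 change of 0.23, where 20.6% of tested genes of at least 20 CPM rose. PSMB3 (ENSG00000277791, chr17:38752736-38764231, plus strand), a structural subunit, measured 77.5, 90.9 and 85.0 CPM in the control libraries and 107, 111 and 115 CPM in the shAURKB libraries. The arms did not overlap, and PSMB3 rose by 0.39 ± 0.07 (edgeR adjusted p = 0.00824). PSMB7 (ENSG00000136930, chr9:124353466-124415444, minus strand) measured 63.5, 62.1 and 61.7 CPM in the control arm and 75.6, 77.9 and 77.4 CPM in the shAURKB arm. Values within an arm were nearly equal, and PSMB7 rose by 0.30 ± 0.05 (edgeR adjusted p = 0.00569).

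Among the remaining beta subunits PSMB1 rose by 0.28 (edgeR adjusted p = 0.0104) and PSMB4 by 0.16 (edgeR adjusted p = 0.0287), and the PSMB4 call was lost whichever library was left out. The catalytic PSMB5 and PSMB6 did not pass the test, with log2 changes of 0.19 (edgeR adjusted p = 0.286) and 0.23 (edgeR adjusted p = 0.0762). PSMB6 values did not overlap between the arms, while those of PSMB5 did. PSMB2 had a log2 change of 0.23 (edgeR adjusted p = 0.0577), also without overlap.

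The immunoproteasome subunits PSMB8, PSMB9 and PSMB10 replace PSMB5, PSMB6 and PSMB7 and are known for shaping peptides for antigen presentation. edgeR called 0 of these 3 changed, 0 had an unadjusted p below 0.05, and both DESeq2 and limma-voom called 0. Their median log2 change was -0.12. PSMB8 (ENSG00000204264, chr6:32840717-32844703, minus strand) measured 165, 177 and 169 CPM in the control arm and 159, 142 and 168 CPM in the shAURKB arm. The arms overlapped, with shAURKB library 2 the lowest, and the log2 change was -0.12 ± 0.07 (edgeR adjusted p = 0.225). PSMB10 measured 67.5, 75.4 and 81.9 CPM in the control arm and 63.6, 71.3 and 65.8 CPM in the shAURKB arm, a log2 change of -0.16 ± 0.08 (edgeR adjusted p = 0.206). PSMB9 measured 51.8, 59.7 and 55.3 CPM against 54.9, 55.8 and 56.6 CPM. Its log2 change was 0.00 ± 0.07 (edgeR adjusted p = 0.972), and every shAURKB value lay inside the control range. PSMB11, the catalytic subunit of the thymoproteasome of the thymic cortex epithelium, had 0 counts in all 6 libraries. A count of 0 allows up to 3 counts in a library, or 0.252 to 0.295 CPM, counting error only, and PSMB11 was not tested.

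Each immunoproteasome subunit was also set against the constitutive subunit whose place it takes, as a ratio of FPKM, a level scaled to gene length and library size. PSMB10/PSMB7 was 0.787, 0.900 and 0.983 in the control libraries and 0.623, 0.678 and 0.630 in the shAURKB libraries. All 3 shAURKB ratios were below all control ratios, by a log2 difference of -0.46. The exact two-sided permutation test gave p = 0.1, the smallest that 3 against 3 allows, and 0.15 after Benjamini-Hochberg adjustment over the 3 ratios. PSMB9/PSMB6 was 0.679, 0.904 and 0.691 against 0.639, 0.638 and 0.641, with a log2 difference of -0.23 (exact permutation p = 0.1, adjusted 0.15), which was -0.10 without shGFP library 2. PSMB8/PSMB5 was 6.0, 7.65 and 6.21 against 6.21, 4.34 and 5.54, with overlapping arms and a log2 difference of -0.31 (exact permutation p = 0.2, adjusted 0.2). That difference was -0.17 without shAURKB library 2 and -0.20 without shGFP library 2.

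**Figure D2:**
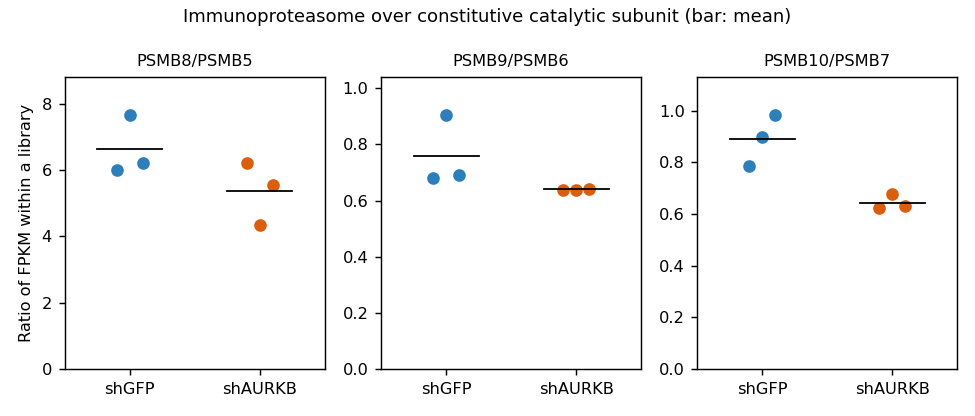
FPKM ratio of each immunoproteasome subunit to the constitutive subunit it replaces, with 1 point per library. PSMB10/PSMB7 lies at 0.787 to 0.983 in the control arm and at 0.623 to 0.678 in the shAURKB arm, while the arms of PSMB8/PSMB5 overlap.

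The base ATPases form the hexameric motor that unfolds substrates. They held the highest share of rises among groups of more than 3 members, 5 of 6, with a median log2 change of 0.42. Over tested genes of at least 20 CPM that share was 20.6%. PSMC5 (ENSG00000087191, chr17:63827152-63832026, plus strand) measured 125, 123 and 122 CPM in the control libraries and 168, 163 and 191 CPM in the shAURKB libraries. Control values were nearly equal, all shAURKB values were above them, and PSMC5 rose by 0.50 ± 0.06 (edgeR adjusted p = 0.0029). PSMC3 (ENSG00000165916, chr11:47418769-47426473, minus strand) measured 112, 108 and 128 CPM against 161, 167 and 158 CPM. It rose by 0.49 ± 0.07 (edgeR adjusted p = 0.00432). FTSJ3, on the strand opposite to PSMC5 and overlapping it, rose by 0.56 (edgeR adjusted p = 0.000461), and shared reads cannot be told apart. PSMC2 (0.43), PSMC4 (0.41) and PSMC6 (0.25) rose as well, at edgeR adjusted p-values of 0.00127, 0.00928 and 0.0109. The summed level of the 6 ATPases was 98.6 to 101% of the control mean in the control arm and 134 to 137% in the shAURKB arm, the highest percentage of the 9 role groups in each shAURKB library.

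PSMC1 was the 1 ATPase that missed the threshold, with a log2 change of 0.34 (edgeR adjusted p = 0.0605) and arms that did not overlap. Its counts were 264, 321 and 335 in the control arm and 399, 332 and 411 in the shAURKB arm. A processed copy, PSMC1P1 (ENSG00000241506, chr3:68635705-68637024, plus strand), held more reads, 618, 673 and 808 against 1004, 865 and 858, in all 234% of those given to PSMC1. Its transcript matches the PSMC1 transcript at 1319 of 1320 bases, so reads of the gene and of the copy cannot be told apart and the PSMC1 values are uncertain. The counts of both together were 882, 994 and 1143 in the control arm and 1403, 1197 and 1269 in the shAURKB arm. That sum, an alternative chosen after seeing the data, rose by 0.39 ± 0.07 (edgeR adjusted p = 0.00736). Of 29 listed pseudogenes of the members, 19 had reads, and the other 18 reached at most 5.65% of the parent's reads.

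The base scaffolds and the ubiquitin receptor all rose, 3 of 3, with a median log2 change of 0.40, where 20.6% of tested genes of at least 20 CPM rose. PSMD1 (ENSG00000173692, chr2:231056864-231172827, plus strand), the larger docking scaffold of the base, measured 145, 135 and 144 CPM in the control arm and 194, 192 and 201 CPM in the shAURKB arm. The arms were far apart for the spread within each, and PSMD1 rose by 0.47 ± 0.05 (edgeR adjusted p = 0.00111). PSMD4 (ENSG00000159352, chr1:151254703-151267479, plus strand), which binds ubiquitin chains, measured 92.2, 96.5 and 105 CPM against 132, 133 and 121 CPM. It rose by 0.40 ± 0.06 (edgeR adjusted p = 0.00661). PSMD2, the second scaffold, rose by 0.21 (edgeR adjusted p = 0.0111), a call lost in the limma fit to unfiltered FPKM. The span of EIF2B5 overlaps that of PSMD2 on the same strand, and EIF2B5 rose by 0.29 (edgeR adjusted p = 0.0137). Whether the overlap takes in exons was not checked, and any shared reads cannot be told apart.

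The lid holds the deubiquitinase PSMD14, which cuts ubiquitin chains off substrates, and a ring of structural subunits. Of 8 lid members 5 rose and 0 fell, with a median log2 change of 0.27, where 20.6% of tested genes of at least 20 CPM rose. The lid count was 3 without shGFP library 2 or without shAURKB library 3. PSMD14 (ENSG00000115233, chr2:161308038-161411717, plus strand) measured 115, 108 and 109 CPM in the control libraries and 131, 133 and 139 CPM in the shAURKB libraries. It rose by 0.28 ± 0.05 (edgeR adjusted p = 0.00739) with no overlap. PSMD8 measured 114, 117 and 114 CPM against 139, 136 and 142 CPM and rose by 0.27 ± 0.04 (edgeR adjusted p = 0.00518). PSMD3, the lid member with the highest level per length (37.2 FPKM in the control arm), rose by 0.27 (edgeR adjusted p = 0.00705), and PSMD11 and PSMD12 rose by 0.27 and 0.26 at edgeR adjusted p-values of 0.0247 and 0.0425. The PSMD11 call was lost without library 2 or 3 of either arm, and the PSMD12 call without any library other than shGFP library 3.

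The other 3 lid members did not pass the test. PSMD7, the partner of PSMD14, was at 105, 93.1 and 83.4 CPM in the control arm and at 138, 92.6 and 135 CPM in the shAURKB arm. shAURKB library 2 was at the control level and the other shAURKB libraries were above it. The log2 change was 0.38 ± 0.16 (edgeR adjusted p = 0.135), and without shAURKB library 2 it was 0.54 (edgeR adjusted p = 0.0211). PSMD6 had a log2 change of 0.22 (edgeR adjusted p = 0.0598) with arms that did not overlap, and PSMD13 one of 0.06 (edgeR adjusted p = 0.583).

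**Figure D3:**
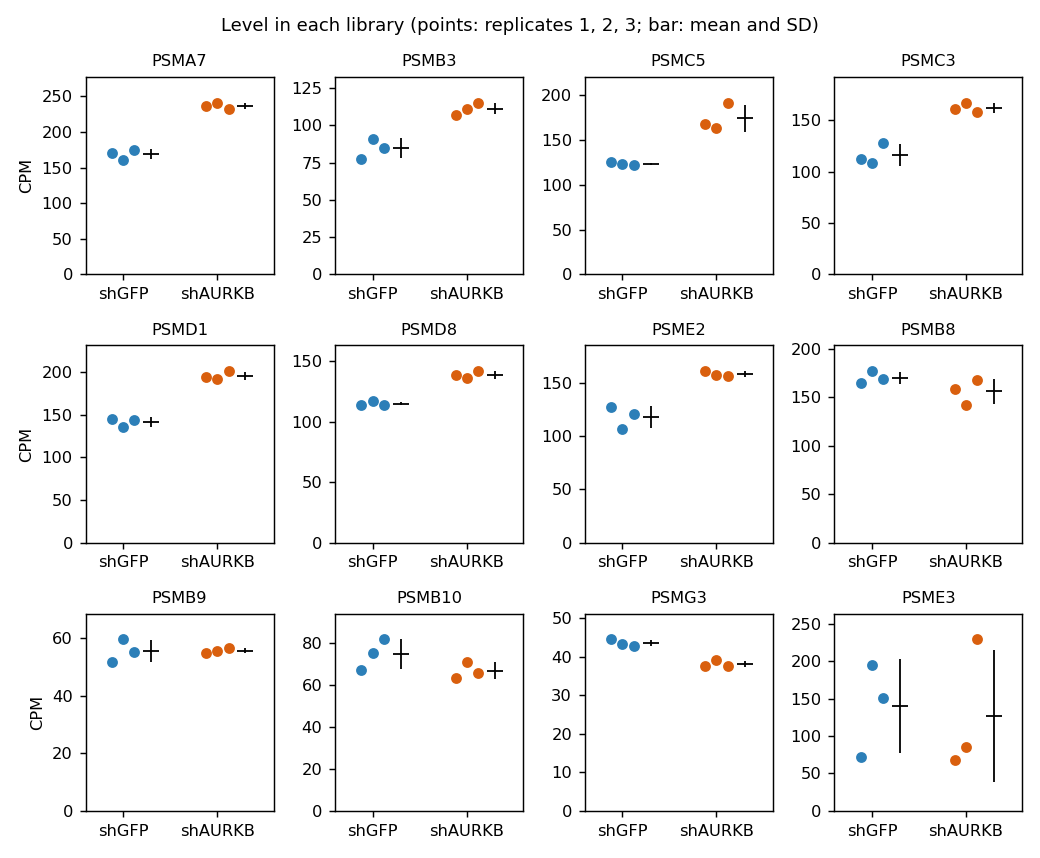
CPM of some of the named members in each of the 6 libraries, with 1 point per library and the arms in separate colours. For PSMA7 the shAURKB points lie at 232 to 241 CPM, above the control points at 161 to 175 CPM, whereas the PSMB8, PSMB9 and PSMB10 points of the arms overlap.

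The assembly chaperones of the core, PSMG1 to PSMG4, bring alpha subunits into a ring and leave before the particle is complete. edgeR called 0 of the 4 changed, DESeq2 and limma-voom called 0, and 1 was lower at an unadjusted p below 0.05. Their median log2 change was -0.02. PSMG3 (ENSG00000157778, chr7:1567330-1571005, minus strand) measured 44.5, 43.3 and 42.8 CPM in the control arm and 37.7, 39.1 and 37.7 CPM in the shAURKB arm. It is the only member whose shAURKB values all lay below all control values. The log2 change was -0.19 ± 0.06 with an edgeR adjusted p of 0.0531, and PSMG3 was called lower with upper-quartile scaling, with a filter at 1 CPM and in the FPKM fits. The other 3 had log2 changes of -0.15 (PSMG1), 0.11 (PSMG2) and 0.15 (PSMG4).

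The base chaperones PSMD5, PSMD9 and PSMD10 each hold an ATPase pair during assembly. PSMD9 measured 47.8, 43.2 and 45.1 CPM in the control arm and 54.3, 54.0 and 51.2 CPM in the shAURKB arm. The arms did not overlap, and PSMD9 rose by 0.23 ± 0.06 (edgeR adjusted p = 0.0398), a call kept without shGFP library 1 but lost without any of the other 5 libraries and with DESeq2. PSMD10 had a log2 change of 0.40 ± 0.15 (edgeR adjusted p = 0.0941) with overlapping arms, and PSMD5 one of 0.17 (edgeR adjusted p = 0.179). The summed level of the base chaperones was 115 to 120% of the control mean in the shAURKB arm, and that of the core chaperones was 95 to 104%.

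**Figure D4:**
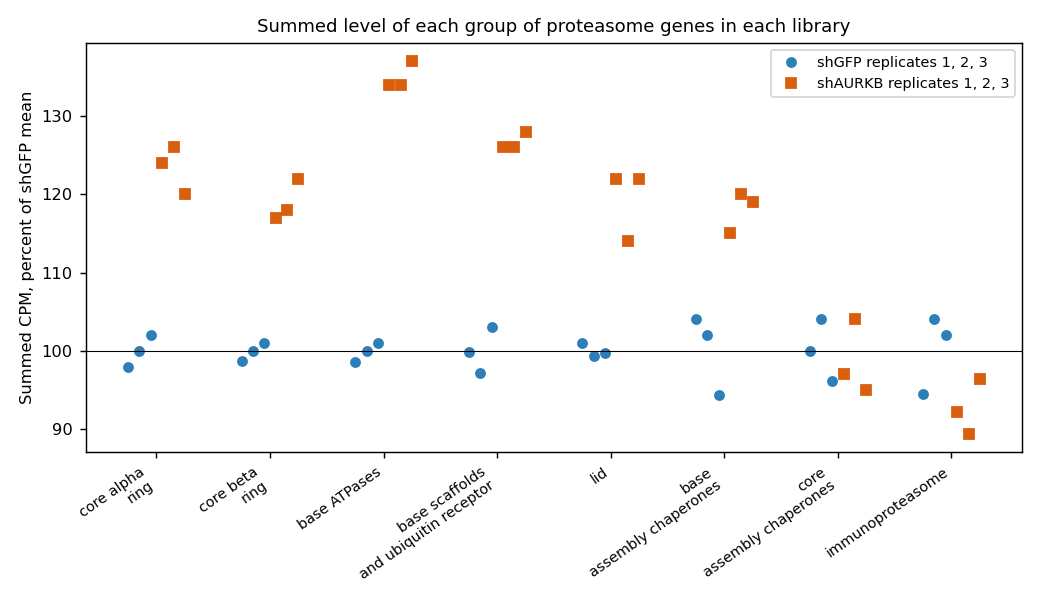
Summed CPM of each role group other than the activators with the inhibitor in each library, as a percentage of the group's control mean. The ATPases reach 134 to 137% in the shAURKB libraries, the core chaperones stay at 95 to 104% and the immunoproteasome subunits at 89.4 to 96.4%.

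The activators open the core gate without ATP, and PSMF1 is known as an inhibitor of the core. Of these 5 genes 2 rose and 0 fell, with a median log2 change of 0.09, where 20.6% of tested genes of at least 20 CPM rose. A group of 5 is too small to read that count as a difference from the share. PSME2 (ENSG00000100911, chr14:24143362-24147570, minus strand), a subunit of the interferon-inducible activator ring, measured 127, 107 and 121 CPM in the control arm and 161, 157 and 156 CPM in the shAURKB arm. All shAURKB values were higher, and PSME2 rose by 0.42 ± 0.07 (edgeR adjusted p = 0.00611). Its ring partner PSME1 (ENSG00000092010, chr14:24136158-24138967, plus strand) measured 205, 214 and 199 CPM against 238, 223 and 250 CPM. It rose by 0.20 ± 0.05 (edgeR adjusted p = 0.035), and that call was lost without shGFP library 1 or 3 and without shAURKB library 1 or 3. PSME4 had a log2 change of 0.09 (edgeR adjusted p = 0.291) and PSMF1 one of -0.11 ± 0.20 (edgeR adjusted p = 0.745).

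PSME3, the nuclear activator, was named after its values were seen because it varied more within each arm than any other member. It measured 72.4, 195 and 151 CPM in shGFP libraries 1 to 3 and 67.4, 85.8 and 229 CPM in shAURKB libraries 1 to 3. Control library 1 and shAURKB libraries 1 and 2 were low, and the other libraries were high, so the arms overlapped. The highest value within an arm was 3.39 times the lowest, against a median ratio of 1.17 and a next highest of 1.69 among the members. Of 4832 genes of at least 50 CPM, 26 (0.538%) had a within-arm ratio at least as large. The log2 change was -0.13 ± 0.52 (edgeR adjusted p = 0.881). The summed level of the activators, PSME3 included, was 127% of the control mean in shAURKB library 3 and 98.4 and 101% in the other shAURKB libraries.

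Per gene length, control-arm levels of the tested members ran from 2.03 FPKM for PSMG4 to 60.3 FPKM for PSMA7. PSMB8 followed with 56.1 ± 1.96 FPKM (SD, n = 3), then PSME1 with 48.6 ± 1.82, PSMB1 with 46.0 ± 1.52 and PSMB3 with 42.9 ± 3.38. PSMB8 thus stood above PSMB5, the subunit it replaces, which had 8.54 ± 0.811 FPKM. PSMB10 at 23.1 ± 2.20 and PSMB7 at 25.9 ± 0.418 FPKM differed by little more than their spread. The order depends on the lengths behind the authors' values, which were 1.03 times the GENCODE 29 exon length for PSMB8 and 3.25 times for PSMB4. Divided by that exon length instead, PSMB8/PSMB5 was 3.08, 3.93 and 3.19 in the control libraries. PSMB10/PSMB7 was then 1.02, 1.17 and 1.28, with PSMB10 above PSMB7, so the order of that pair turns with the length used.

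Several members share a locus with another transcript. The tested span of 25 members overlapped another tested gene, in 20 of them on the opposite strand. PSMA3-AS1, the antisense transcript at PSMA3, measured 67.3, 70.3 and 70.1 CPM in the control arm and 54.4, 53.0 and 50.9 CPM in the shAURKB arm. It fell by 0.39 on the log2 scale (SE 0.05, edgeR adjusted p = 0.00346) while PSMA3 rose. PSMB8-AS1 was lower with a log2 change of -0.40 ± 0.09 (edgeR adjusted p = 0.0203), a call lost without shGFP library 1 or 2 and without shAURKB library 2 or 3. PSMD5-AS1 (-0.35, edgeR adjusted p = 0.0572), PSMG3-AS1 (-0.67, edgeR adjusted p = 0.06) and PSMD6-AS2 (-0.27, edgeR adjusted p = 0.213) did not pass the test. Overlap was taken between whole gene spans, and shared exons were not looked for. Without the strand setting, reads from any bases that a sense and an antisense partner share cannot be told apart.

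Head-to-head neighbours, with starts at most 1000 bases apart on opposite strands, were found for 13 members in 13 pairs. In 2 pairs both genes rose, and no neighbour rose in the other pairs. Of all tested genes 12.5% rose and 10.9% fell. PSMC2 and DNAJC2, a ribosome-associated chaperone, had log2 changes of 0.43 and 0.45. PSME2 and RNF31, a ubiquitin ligase subunit, had 0.42 and 0.32, with an edgeR adjusted p of 0.0489 for RNF31. The gene spans overlap in both of these pairs, so without the strand setting shared reads cannot be told apart. PSMA7, in contrast, rose by 0.49 beside SS18L1, which had a log2 change of -0.01 (edgeR adjusted p = 0.918). The spans of that pair do not overlap. The neighbour was lower in 2 pairs, those of PSMB8 with PSMB8-AS1 and of PSMD13 with SIRT3 (-0.39, edgeR adjusted p = 0.0382).

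Promoter sequence was compared because 24 members rose. RefSeq promoters (GRCh38.p14, 250 bases before to 50 after a gene's start) were at hand for 42 of the 48 members, and not for PSMA7, PSMB1, PSMB6, PSMB7, PSMD4 and PSMG3. The motif TGACNNNGC, the core of the antioxidant response element to which the proteasome-gene activators NFE2L1 and NFE2L2 bind with small MAF partners, was searched on both strands. It was found in 15 of 42 member promoters (35.7%), against 16.1% of all 27305 promoters and 19.6% of those of tested genes. Of the other members, which did not pass the test or, for PSMB11, were not tested, it was in 6 of 22 (27.3%). Of the members that rose it was in 9 of 20 (45.0%), beside 20.7% of all genes that rose. In 7 of these 9 a match lay before the start, and those matches follow so that their bases can be compared. In PSMD1 and PSMC4 the match lay after the start, as did a further match of PSMD3. Each sequence runs 5′ to 3′ along the gene's own strand, with the motif or its reverse complement in capitals and 10 bases on each side.
PSMD9 (chr12:121888631-121888659, plus strand, 149 bases before the start): cgctactcctGCCGGGTCAccacaggcgc
PSMD9 (chr12:121888678-121888706, plus strand, 102 before): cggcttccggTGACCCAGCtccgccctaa
PSME1 (chr14:24136098-24136126, plus strand, 86 before): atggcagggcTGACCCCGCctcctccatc
PSME2 (chr14:24146767-24146795, minus strand, 175 before): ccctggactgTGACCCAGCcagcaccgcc
PSMB3 (chr17:38752627-38752655, plus strand, 104 before): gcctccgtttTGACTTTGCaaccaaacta
PSMD3 (chr17:39980760-39980788, plus strand, 37 before): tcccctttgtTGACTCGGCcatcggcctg
PSMC5 (chr17:63827654-63827682, plus strand, 57 before): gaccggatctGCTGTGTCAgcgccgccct
PSMD12 (chr17:67366724-67366752, minus strand, 165 before): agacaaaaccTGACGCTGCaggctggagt
PSMD9 holds a pair of matches, and both subunits of the activator ring, PSME1 and PSME2, hold one each. A match is a run of letters and not a measured binding site. The PSMC5 and PSME2 matches are placed by starts in the RefSeq table that lie downstream of the starts in the deposited table, and both matches fall inside the deposited gene spans.

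Other motifs were searched on both strands of the same promoters. CCGGAAG, bound by ETS-family factors, was in 15 of 42 member promoters (35.7%), against 12.2% of all promoters and 23.4% of those of tested genes, and in 28.9% of those of all genes that rose. It was in 6 of the 20 members that rose (30.0%) and in 9 of the 22 other members (40.9%). CCAAT, bound by the NFY complex, was in 20 member promoters (47.6%), against 39.7% and 43.5%. CACGTG, the E-box bound by MYC and its relatives, was in 3 member promoters (7.14%), against 8.77% and 12.7%. Of 17 TGACNNNGC matches in member promoters, 0 overlapped a match to another of these motifs. Several motifs are common in promoters near a start, and the shares are descriptions with no test.

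Genes that work with the proteasome but lie outside the naming pattern were described from 4 lists. Of 17 partners of the particle, 7 rose (41.2%) and 1 fell, with a median log2 change of 0.15. The share that rose was 12.5% over all tested genes and 20.6% over those of at least 20 CPM. POMP, the maturation factor of the core, measured 100, 110 and 82.0 CPM in the control arm and 141, 141 and 132 CPM in the shAURKB arm and rose by 0.51 ± 0.10 (edgeR adjusted p = 0.0145). It thus rose where the PSMG chaperones did not pass the test, a contrast that was itself not tested. ADRM1, a ubiquitin receptor of the base, measured 96.8, 86.8 and 94.1 CPM against 128, 129 and 121 CPM and rose by 0.44 ± 0.06 (edgeR adjusted p = 0.00289). AKIRIN2, which carries proteasomes into the nucleus, was the 1 partner that fell, with a log2 change of -0.28 (edgeR adjusted p = 0.0169), and that call was lost without shGFP library 1, shGFP library 3 or shAURKB library 1, where the partner calls numbered 5.

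Among 13 tested regulators of proteasome genes 4 rose (30.8%) and 1 fell. Of all tested genes 12.5% rose and 10.9% fell, and of those of at least 20 CPM 20.6% rose and 11.1% fell. NFYA, the subunit of the CCAAT-binding factor that gives it sequence specificity, measured 112, 116 and 116 CPM in the control arm and 169, 168 and 170 CPM in the shAURKB arm. The values within each arm were almost equal, and NFYA rose by 0.56 ± 0.04 (edgeR adjusted p = 0.000374). Its partner NFYB was the gene that fell, with a log2 change of -0.31 (edgeR adjusted p = 0.0163), a call lost without shGFP library 2 or 3. VCP, the segregase that feeds the proteasome, measured 405, 395 and 419 CPM against 535, 482 and 530 CPM and rose by 0.34 ± 0.05 (edgeR adjusted p = 0.00389). STAT3 (0.32, edgeR adjusted p = 0.00164) and DDI2 (0.18, edgeR adjusted p = 0.0148) rose as well, and the DDI2 call was not kept in every repeated fit. NFE2L1 measured 140.0, 120.0 and 115 CPM against 127, 106 and 143 CPM, with overlapping arms and a log2 change of 0.00 ± 0.12 (edgeR adjusted p = 0.987). NFE2L2 measured 83.5, 83.5 and 38.8 CPM against 55.3, 56.5 and 50.8 CPM. The arms overlapped, shGFP library 3 was the lowest, and the log2 change was -0.34 ± 0.27 (edgeR adjusted p = 0.413). Over the repeated fits that change ran from -0.62 to -0.17. NFE2L1 is known to be activated by cleavage of its protein, which RNA does not report.

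In the ubiquitin supply list, ubiquitin genes with activating and conjugating enzymes, 7 of 11 rose (63.6%), 0 fell, and the median log2 change was 0.29. The share that rose was 12.5% over all tested genes and 20.6% over those of at least 20 CPM. UBE2C measured 179, 184 and 195 CPM in the control arm and 228, 243 and 264 CPM in the shAURKB arm and rose by 0.39 ± 0.06 (edgeR adjusted p = 0.00588). UBE2S measured 184, 191 and 192 CPM against 242, 255 and 237 CPM and rose by 0.37 ± 0.04 (edgeR adjusted p = 0.00173). Both are conjugating enzymes of the anaphase-promoting complex.

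The antigen processing and interferon list, whose genes share induction with the immunoproteasome, had 2 of 17 tested genes higher (11.8%, beside 12.5% of all tested genes) and 1 lower, with a median log2 change of 0.02. TAP2, a subunit of the peptide transporter, measured 112, 96.3 and 96.5 CPM in the control arm and 129, 127 and 130 CPM in the shAURKB arm and rose by 0.35 ± 0.07 (edgeR adjusted p = 0.0119). GBP1 was the other higher gene, at a log2 change of 0.19 (edgeR adjusted p = 0.0407), and lost its call whichever library was left out.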

How the data were processed

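RNA-seq was analysed for 6 CUTLL1 libraries, 3 per arm, grouped by title, with group, replicate and column names matching 1 to 1. The authors deposited whole-number counts per gene, which the edgeR test uses, and FPKM for the same genes. In each library the deposited FPKM are proportional to the counts, gene by gene, to within 1.18e-05 of their value in the 10804 genes checked. HISAT2 2.0.4, StringTie 1.3.0, edgeR and GRCh38 (hg38) are named in the submitters' processing notes, while the sources used here do not give their roles, the strand setting or the handling of multiply mapped reads. Gene coordinates are those of the deposited table, and 48 of 48 members have the same position in GENCODE 29.

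edgeR 4.0.16 (R 4.3.3) was fitted to all genes left by filterByExpr (minimum count 10, minimum total 15, 14818 genes holding 99.65 to 99.8% of the counts) with TMM scaling (factors 0.9789 to 1.02), the quasi-likelihood test and Benjamini-Hochberg adjustment over all tested genes. A call is an adjusted p below 0.05. CPM are counts scaled to the TMM-adjusted library size. Subunit ratios were tested by exact permutation with SciPy 1.17.1. The same comparison was repeated with upper-quartile or RLE scaling, with DESeq2 1.42.0 and limma 3.58.1 (voom, and trend on log2(FPKM + 1) or log2(FPKM + 0.1) with a filter at 0.5 FPKM in 3 libraries or none), under other count filters, with a replicate block and without each library in turn. The edgeR script was tested on simulated counts. Replicates are biological according to the series' design text, and pairs within an arm differed beyond counting noise (chi-square per degree of freedom 6.92 to 7.91).

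The members and gene lists were chosen with earlier results of these data known. Values in every library are given for AURKB, for the 2 most raised and the 2 most lowered called members of a role group (the member with the smallest p where none is called), for each immunoproteasome subunit and for the 2 called genes of each other list with the largest change. Members named beyond that rule with such values (PSMA4, PSMA8, PSMC1, PSMD7, PSME3), with PSMC1P1, PSMA3-AS1, NFE2L1 and NFE2L2, were chosen after their values were seen. For 1 gene of the other lists that meets the rule, values are not reported here.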

Additional observations from a re-analysis of the deposited data

How the results depend on the processing

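Members called higher and lower numbered 24 and 0 with RLE scaling, DESeq2 and limma-voom, 21 and 0 with no filter, 24 and 1 with a 1 CPM filter, 19 and 1 with upper-quartile scaling, 18 and 1 in both filtered FPKM fits, 16 and 1 in the unfiltered one, and 19 to 21 and 0 with 1 library left out. Of the 24 called members 16 stayed called under every alternative listed in the methods. Same-numbered libraries did not deviate together (correlations -0.0887, -0.0313 and -0.0365). With 3 libraries per arm, these values cannot settle whether same-numbered cultures were prepared together. With the replicate block 18 members were called, 3 of the lid, 0 base chaperones, 1 activator and 5 partners, and 2313 genes in all. The cause of these differences was not tested.

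In the FPKM fits the lid had 3 calls, the core chaperones 1 (PSMG3, lower), the base chaperones 0 and the activators 1. The unfiltered FPKM fit called 2078 genes in all, 3 partners, 4 ubiquitin supply genes and 1 antigen processing gene. Upper-quartile scaling gave 1 core chaperone, 0 base chaperones and 1 activator, the 1 CPM filter gave 1 core chaperone, and DESeq2 and no filter gave 0 base chaperones. With each library left out in turn, all calls ranged from 2269 to 2383, lid calls from 3 to 5, base chaperones from 0 to 1, activators from 1 to 2 and partners from 5 to 8. PSMB9, at 0.00, turned to -0.05 with upper-quartile scaling, -0.00075 with the 1 CPM filter, -0.04 in the 3 FPKM fits, and between -0.04 and 0.06 with 1 library left out (-0.003 without shAURKB library 3). With 1 library left out PSME3 ranged from -0.86 to 0.19 (positive without shGFP library 2, at 0.19, and without shAURKB libraries 1 and 2, at 0.18 and 0.09). PSMF1 ranged from -0.30 to 0.04 (0.04 without shGFP library 1, 0.01 without shAURKB library 1). With 3 libraries per arm a change well beyond its SE can still go uncalled, as for PSMD10 (0.40 ± 0.15, edgeR adjusted p = 0.0941). A member without a call is therefore not shown to be unchanged.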
